A study of Homo sapiens with 18 samples.

Results

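The genes described here are 39 genes of DNA replication and S phase, read in MCF10A, an established human mammary epithelial cell line that does not form tumours. They were chosen by symbol: each is annotated to a probe set (a group of array probes that reads 1 transcript region) of the deposited table, and all 39 are among the 18404 genes with a usable probe set. The table covers 18 Affymetrix whole-transcript arrays in 6 groups of 3. All cells had been infected with a hairpin lentivirus at a multiplicity of 5, selected for 4 days with 1.5 µg/ml puromycin and given 7 days or more to recover. All were then transiently transfected with a cDNA vector by Lipofectamine2000, and RNA was taken 5 days later from an estrogen-containing medium (M5).

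In the knockdown groups, given the control cDNA, the hairpin was directed against LATS1 (shLATS1B) or, by the labels, the hairpins were directed against LATS1 and LATS2 (shLATS1+2). The other 4 groups carried a non-targeting hairpin (shNT) and received YAP/TAZ cDNA, ESR1 cDNA, YAP/TAZ and ESR1 cDNA together (called both cDNAs below), or the control cDNA; arrays of the last kind are called the control arrays. LATS1 and LATS2 are kinases of the Hippo pathway, which restrains the co-activators YAP and TAZ, and ESR1 encodes estrogen receptor alpha. The share of cells that took up a cDNA is not given in the labels, nor whether the infected cells were grown as clones, and nothing there says that the 3 arrays of a group came from separate cultures. The p-values therefore measure only the spread between these samples, and 3 arrays a group limit the precision.

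Before a cell copies its DNA, the origin recognition complex with CDC6 and CDT1 loads a ring of MCM proteins onto each origin. As S phase begins, CDC45 and the GINS complex join the ring to form the active helicase, and polymerases, a sliding clamp and its loader follow. Many of these genes are transcribed in a wave at the border of G1 and S phase, driven by E2F factors once cyclin E and its kinase have inactivated the retinoblastoma proteins, so their RNA in a culture is widely read as a trace of proliferation.

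Values are log2 intensities as deposited, a change is the difference of group means on the log2 scale with its standard error from limma (a linear model across all genes), and a gene is called at a Benjamini-Hochberg adjusted p under 0.05 over the 18404 genes. Array medians lay between 5.494 and 5.619, and arrays of a group correlated at 0.993 to 0.998 across probe sets. A first principal component with 47.3% of the variance placed the control, YAP/TAZ and ESR1 arrays (-23.0 to -10.3) apart from those of both cDNAs and the 2 knockdowns (9.83 to 22.7), and ESR1 array 1 (-10.3) and shLATS1+2 array 3 (9.83) lay nearest to the gap. The labels name no batch, so for differences across that gap, batch and treatment cannot be told apart. The 6 knockdown arrays read 7.57 to 7.85 for LATS1 and the other 12 arrays 8.64 or above, whereas LATS2 was not called lower in the arrays labelled shLATS1+2. With YAP/TAZ cDNA neither YAP1 (-0.051 ± 0.075, adjusted p = 0.83) nor WWTR1, which encodes TAZ (-0.13 ± 0.089, adjusted p = 0.53), was called higher, and whether their probe sets read the transfected sequence was not analysed here; all groups are named by their labels. ESR1 rose with ESR1 cDNA (0.94 ± 0.081) and also in the shLATS1B (0.85 ± 0.081) and shLATS1+2 arrays (0.88 ± 0.081; limma, adjusted p from 4e-07 to 6.1e-07). With both cDNAs ESR1 rose less (0.50 ± 0.081, limma adjusted p = 0.00013) and was called lower than with ESR1 cDNA alone (-0.44 ± 0.081, limma adjusted p = 0.00059), with an interaction of -0.65 ± 0.11. In these arrays LATS1 (0.47 ± 0.078), LATS2 (0.24 ± 0.063) and WWTR1 (0.42 ± 0.089) were called higher than in the control arrays, and YAP1 was not called (0.038 ± 0.075, limma adjusted p = 0.79).

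All 9 measured mammary epithelial markers stood above 5.21, the percentile 30 of gene means used as the limit for dim genes, in every group, but their levels changed. With both cDNAs 4 of the 9 rose and 4 fell, against 14.7% of all genes in each direction. KRT14, a keratin of basal cells, was 4.84-fold lower (-2.27 ± 0.14). KRT8, a keratin of luminal cells (0.65 ± 0.13), and the adhesion molecule EPCAM (0.63 ± 0.039) rose. KRT14 fell 5.96-fold with shLATS1B and 5.15-fold with shLATS1+2, and by less with YAP/TAZ cDNA (-0.73 ± 0.14) and ESR1 cDNA (-0.78 ± 0.14). Of 17 markers of leukocytes, endothelium, fibroblasts, smooth muscle and fat, 6 or 7 stood above that limit in each group. CD14, CD68, PECAM1 and the collagen genes COL1A1, COL1A2 and COL3A1, listed as fibroblast markers, did so in every group. PDGFRB did so only with both cDNAs and MYH11 only in the control arrays. PTPRC, CD3E, LYZ, VWF, CDH5, KDR, PDGFRA, THY1 and ADIPOQ did so in no group. With both cDNAs 3 of the 17 were called, all higher, near the 14.7% of all genes called higher. These were the monocyte markers CD14 (4.03-fold) and CD68 (1.95-fold) and the endothelial marker PECAM1 (0.28 ± 0.077). CD14 rose 3.54-fold with shLATS1B and 3.24-fold with shLATS1+2. The median change of the 17 with both cDNAs was -0.018. The mean of these 17 per array was 5.74 to 5.77 with both cDNAs and in both knockdown groups, 5.56 to 5.64 with either single cDNA, and 5.54 to 5.60 in the control arrays. Without CD14, CD68 and PECAM1 the mean of the other 14 was 4.99 to 5.04 with both cDNAs and in both knockdown groups, 5.01 to 5.09 with either single cDNA and 4.99 to 5.06 in the control arrays. The changes of KRT14, KRT8, EPCAM, CD14, CD68 and PECAM1 run beside those of the replication genes below, and their part in those results was not tested.

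All 39 genes had a mean above the limit for dim genes in every group, the dimmest being E2F2. UHRF1 was the only one with 2 probe sets. The second, which was not used, lay near the limit for dim genes and did not fall with both cDNAs. It read 5.21 ± 0.067 there and 5.10 ± 0.064 in the control arrays (mean ± SD). For orientation, the promoters of the genes were read from RefSeq (GRCh38.p14), as windows from 250 bases before to 50 bases after each gene start. Promoters were matched for 34 of the 39 genes, in 43 windows, and MCM4, MCM5, POLD3, CCNE2 and E2F8 had no entry. The E2F motif, searched on both strands as TTTCCCGC, TTTCGCGC, TTTGCCGC or TTTGGCGC, was found in 20 of 43 windows (46.5%), against 1164 of 35116 windows of all genes (3.31%). Counted by gene, 19 of 34 (55.9%) had it, against 1090 of 27305 (3.99%). The CCAAT box, searched as CCAAT, was in 60.5% of the 43 windows, against 34.6% of all, and the CHR element of mitotic genes, searched as TTTGAA, in 1 of 43 (2.33%), against 15.2%. A match describes the letters and is neither a bound site nor a cause.

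The 160 bases before the start are shown for 5 genes, 5′ to 3′ on the gene's strand, with matches to the E2F motif in capitals. MCM6 and POLA1 fell both with ESR1 cDNA alone and with both cDNAs. GINS2, RFC3 and PCNA fell with both cDNAs by more than the sum of the single changes. In MCM6 (chr2:135876444-135876603, minus strand) each run of capitals holds a pair of overlapping matches on opposite strands. The others are POLA1 (chrX:24693758-24693917, plus strand), GINS2 (chr16:85688955-85689114, minus strand), RFC3 (chr13:33817989-33818148, plus strand) and PCNA (chr20:5126623-5126782, minus strand).
MCM6: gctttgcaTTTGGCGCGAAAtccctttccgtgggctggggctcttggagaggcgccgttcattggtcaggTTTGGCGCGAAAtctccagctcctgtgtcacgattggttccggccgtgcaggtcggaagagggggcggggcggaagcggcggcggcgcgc
POLA1: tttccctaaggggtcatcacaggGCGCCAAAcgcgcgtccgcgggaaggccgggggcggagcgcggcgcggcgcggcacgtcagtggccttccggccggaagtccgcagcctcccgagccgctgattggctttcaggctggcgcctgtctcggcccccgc
GINS2: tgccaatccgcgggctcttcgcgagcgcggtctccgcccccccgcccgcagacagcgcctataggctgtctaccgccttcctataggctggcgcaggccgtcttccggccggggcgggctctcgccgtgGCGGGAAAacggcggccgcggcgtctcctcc
RFC3: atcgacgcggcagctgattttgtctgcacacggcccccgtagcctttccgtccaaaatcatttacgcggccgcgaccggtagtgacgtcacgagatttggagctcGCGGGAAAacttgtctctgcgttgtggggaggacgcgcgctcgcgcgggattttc
PCNA: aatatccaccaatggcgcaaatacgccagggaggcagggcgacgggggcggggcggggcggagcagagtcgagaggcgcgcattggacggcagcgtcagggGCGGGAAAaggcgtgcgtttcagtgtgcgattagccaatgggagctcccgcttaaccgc

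Across the 6 groups, the 39 genes were lowest with both cDNAs and highest in the control arrays. The mean over the 39 genes of each gene's difference from its own 18-array mean was 0.029, 0.058 and 0.033 in the shLATS1B arrays, 0.029, 0.035 and -0.0033 in the shLATS1+2 arrays, 0.063, 0.055 and 0.073 with YAP/TAZ cDNA, 0.090, -0.093 and -0.056 with ESR1 cDNA, -0.31, -0.31 and -0.28 with both cDNAs and 0.18, 0.22 and 0.18 in the control arrays. The arrays with both cDNAs lay below the other 15 arrays and the control arrays above them, with the other 4 groups in between. By group mean, the arrays with both cDNAs were the lowest of the 6 groups for 29 of the 39 genes, against 21.2% of all genes, and the control arrays the highest for 23, against 22.5% of all genes. For 17 of the 39 all 3 arrays with both cDNAs lay below all other 15, against 4.14% of all genes. They were ORC1, ORC6, MCM10, CDC45, all 3 GINS genes, PRIM1, POLE2, POLD3, PCNA, RFC2, RFC3, RFC5, RRM2, TYMS and CCNE1. In bulk RNA such as this, fewer cells in S phase and less of these RNAs per cell cannot be told apart.

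**Figure D1:**
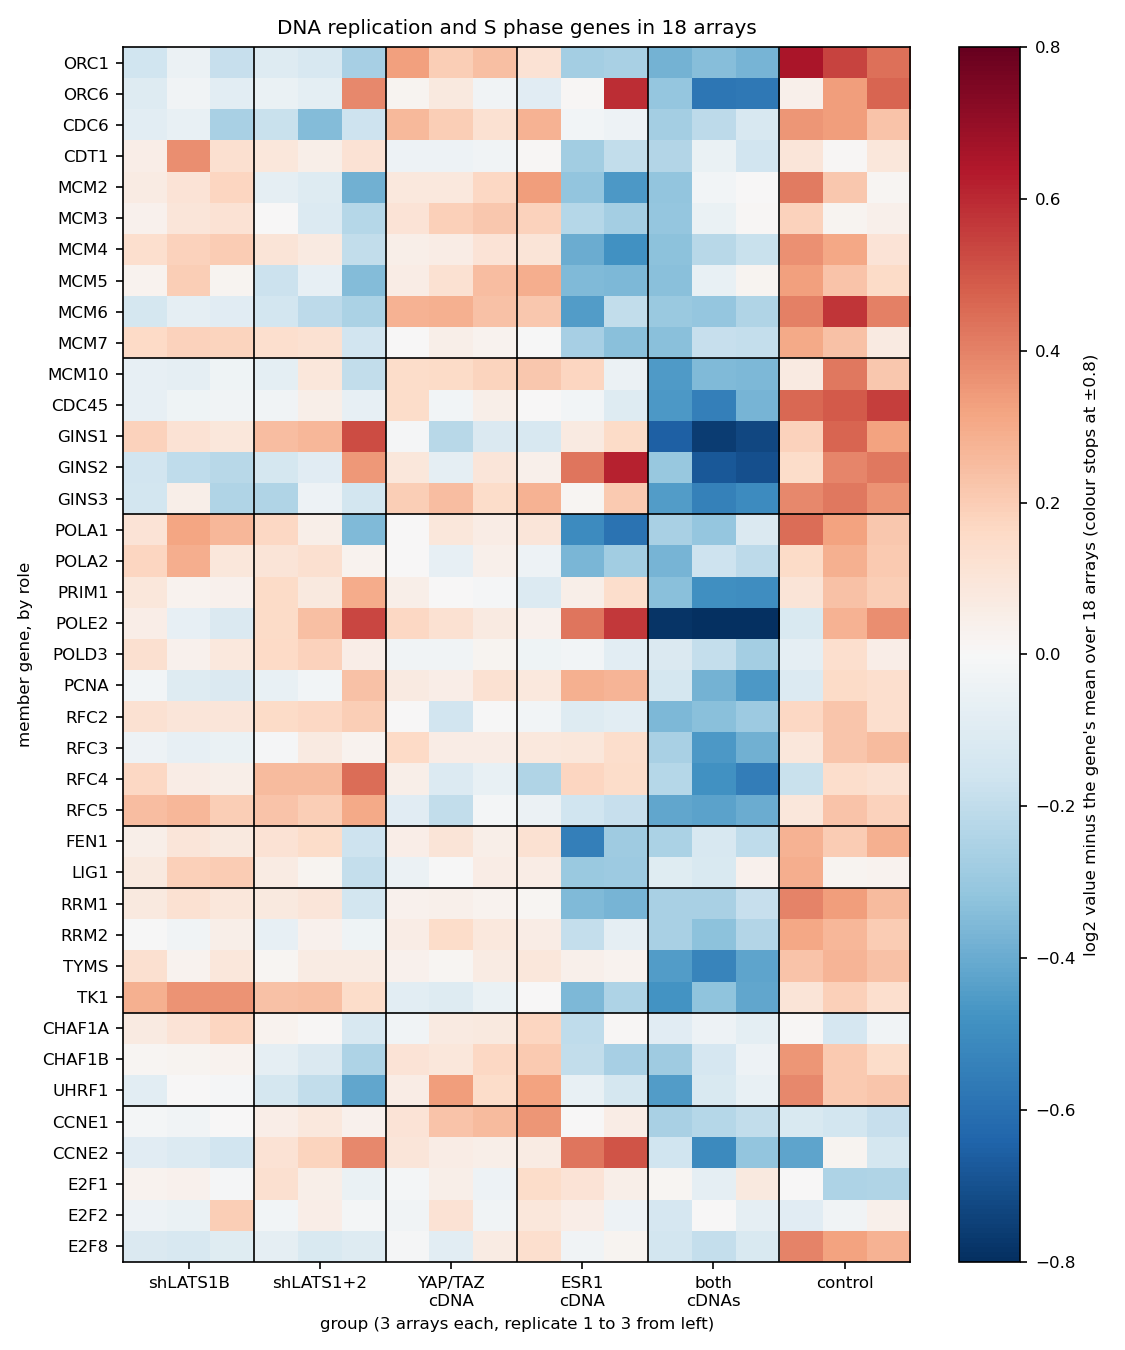
Each of the 39 genes (rows, ordered by role) on each of the 18 arrays (columns, by group), coloured by its difference from its own 18-array mean on the log2 scale. The 3 arrays with both cDNAs are low in most rows, and the 3 control arrays have the highest group mean in 23 of the 39. CCNE1, CCNE2 and E2F1 near the bottom are among the rows where they do not.

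ESR1 array 1 lay apart from the other arrays of its group for the licensing genes, and shLATS1+2 array 3 by less. For the 10 licensing genes, the mean difference from the 18-array mean was 0.15, -0.26 and -0.20 in ESR1 arrays 1 to 3 and -0.039, -0.080 and -0.15 in shLATS1+2 arrays 1 to 3. Other groups held gaps as wide as that of shLATS1+2 array 3. Arrays 1 to 3 read -0.31, -0.20 and -0.18 with both cDNAs and 0.31, 0.28 and 0.20 in the control arrays. For the 5 helicase activation genes the values were 0.080, 0.13 and 0.17 with ESR1 cDNA and -0.048, 0.054 and 0.090 with shLATS1+2. ESR1 array 1 was the highest of its group for licensing, and shLATS1+2 array 3 the lowest. The helicase activation values do not set these arrays apart, since shLATS1+2 array 1 lay farthest from its group, and the control arrays read 0.25, 0.44 and 0.38, with array 1 the lowest. For the polymerases, clamp and clamp loader the control arrays read 0.057, 0.22 and 0.19, array 1 again being the lowest. Outside the replication genes, the 9 mammary epithelial markers read 0.21, -0.070 and -0.11 with ESR1 cDNA and -0.067, -0.062 and -0.18 with shLATS1+2. ESR1 array 1 and shLATS1+2 array 3 again lay farthest from their groups. Array 1 of other groups also lay apart, at 0.19, 0.034 and 0.012 in the control arrays and -0.10, 0.0034 and 0.032 with both cDNAs. Control array 1 enters every comparison with the control arrays. POLA1, the catalytic subunit of DNA polymerase alpha, read 8.60, 7.997 and 7.91 with ESR1 cDNA and 8.67, 8.55 and 8.15 with shLATS1+2, and GINS2 read 10.73, 11.11 and 11.30 and 10.54, 10.59 and 11.03. For the 39 genes, counts below that rest on these groups are given with and without ESR1 array 1 and shLATS1+2 array 3. Together they are called the arrays that stood apart, and the fit without both was chosen after the data were seen. For fits that leave out arrays, the shares of all genes called are not given here. Counts from such fits are therefore not set against them.

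The arrays with both cDNAs were set against the control arrays to ask what YAP/TAZ and ESR1 do together. Of the 39 genes 30 fell, against 14.7% of all genes called lower, and none was called higher, against 14.7% of all genes (limma, adjusted p under 0.05, 3 against 3 arrays). Their median change was -0.50, against -0.0043 over all genes, and 11 of them fell by at least 1.5-fold, against 3.12% of all genes. The largest falls were those of POLE2, GINS1, CDC45, ORC1, GINS2 and GINS3, with folds from 1.84 to 2.11. Leaving out any 1 array kept 29 of the 30 calls, and the exception was CDT1.

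Among the 10 genes of origin licensing, 7 fell with both cDNAs. ORC1, the large subunit of the origin recognition complex, read 7.13, 7.16 and 7.13 with both cDNAs, against 8.16, 8.04 and 7.94 in the control arrays. This was a 1.88-fold fall (-0.91 ± 0.086, limma adjusted p = 4.2e-07). ORC6, its smallest subunit, read 6.40, 6.13 and 6.14, against 6.75, 7.05 and 7.18 (-0.76 ± 0.16, limma adjusted p = 0.0011). The loading factor CDC6 (-0.50 ± 0.082) fell, as did its partner CDT1, by a small amount on the edge of the threshold (-0.21 ± 0.078; limma, adjusted p = 0.05). Of the 6 subunits of the MCM ring, MCM6 read 8.60, 8.58 and 8.65, against 9.30, 9.47 and 9.30 in the control arrays (-0.74 ± 0.11, limma adjusted p = 4.9e-05). MCM4 (-0.50 ± 0.12) and MCM7 (-0.44 ± 0.088) fell less. MCM2 (-0.33 ± 0.16), MCM3 (-0.20 ± 0.10) and MCM5 (-0.36 ± 0.14) had negative estimates and were not called (limma, adjusted p from 0.068 to 0.18), so the 6 subunits of 1 ring differed in their calls.

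All 5 genes of helicase activation fell with both cDNAs, and their median change of -0.88 was the largest of the roles with 3 or more genes. CDC45 read 8.83, 8.75 and 8.92 with both cDNAs, against 9.76, 9.79 and 9.85 in the control arrays (1.95-fold lower, -0.96 ± 0.055; limma, adjusted p = 8.4e-10). GINS1 read 9.38, 9.28 and 9.31, against 10.22, 10.50 and 10.36 (2.05-fold lower, -1.04 ± 0.088; limma, adjusted p = 9.9e-08). GINS2 read 10.38, 10.01 and 9.98, against 10.83, 11.08 and 11.11 (-0.88 ± 0.15, limma adjusted p = 0.00016), and GINS3 read 7.73, 7.64 and 7.67, against 8.56, 8.60 and 8.53 (-0.88 ± 0.075, limma adjusted p = 1e-07). The 3 GINS genes encode subunits of 1 complex of 4. All 3 are among the 17 genes whose arrays with both cDNAs lay below all other 15, against 4.14% of all genes. MCM10, a scaffold needed to set the helicase moving, fell by a smaller amount (-0.63 ± 0.085).

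All 10 genes of the polymerases, the clamp and the clamp loader fell with both cDNAs. POLE2, an accessory subunit of DNA polymerase epsilon, which extends the leading strand, read 7.52, 7.25 and 7.42 with both cDNAs, against 8.18, 8.58 and 8.67 in the control arrays. This was the largest fall of the 39 (2.11-fold, -1.08 ± 0.14; limma, adjusted p = 1.1e-05). Within the polymerase alpha and primase complex, which lays down primers, POLA1 (-0.56 ± 0.15), its accessory subunit POLA2 (-0.47 ± 0.077) and the primase PRIM1 (-0.62 ± 0.068) fell by similar amounts. POLD3, an accessory subunit of the lagging-strand polymerase delta, fell least (-0.23 ± 0.056). PCNA, the sliding clamp, read 10.31, 10.07 and 9.99, against 10.34, 10.60 and 10.58 (-0.38 ± 0.092, limma adjusted p = 0.0039). Its highest array with both cDNAs lay just below the lowest control array. The clamp loader genes RFC2 (-0.50 ± 0.045), RFC3 (-0.56 ± 0.054), RFC4 (-0.45 ± 0.11) and RFC5 (-0.58 ± 0.054) fell by like amounts.

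The 4 genes of deoxynucleotide supply also fell with both cDNAs. TYMS, the thymidylate synthase, read 9.60, 9.52 and 9.62 with both cDNAs, against 10.27, 10.32 and 10.28 in the control arrays, with a spread within each group far below the difference (-0.71 ± 0.041; limma, adjusted p = 8.9e-10). The large and small subunits of ribonucleotide reductase, RRM1 (-0.56 ± 0.084) and RRM2 (-0.53 ± 0.057), and the thymidine kinase TK1 (-0.54 ± 0.070) fell together. Of the genes that finish Okazaki fragments, the flap nuclease FEN1 fell (-0.45 ± 0.12) and the ligase LIG1 was not called (-0.17 ± 0.10, adjusted p = 0.21). In chromatin assembly, CHAF1B (-0.39 ± 0.10) and UHRF1, which carries DNA methylation through replication (-0.48 ± 0.12), fell. CHAF1A, the large subunit of the same assembly factor, was not called (-0.019 ± 0.074, limma adjusted p = 0.9).

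The G1/S regulators were the exception among the roles. Only the repressor E2F8 fell with both cDNAs (-0.48 ± 0.050). Cyclins E1 (-0.080 ± 0.068, adjusted p = 0.46) and E2 (-0.15 ± 0.12, adjusted p = 0.42) and the activators E2F1 (0.17 ± 0.065, adjusted p = 0.065) and E2F2 (-0.041 ± 0.067, adjusted p = 0.74) were not called by limma. E2F1 is the only one of the 39 with a positive estimate in this comparison, at 7.32, 7.23 and 7.38 with both cDNAs, against 7.31, 7.06 and 7.07 in the control arrays, of which array 1 lay within the range of the arrays with both cDNAs. E2F2 lay just above the limit for dim genes throughout, at 5.26 ± 0.070 with both cDNAs and 5.30 ± 0.063 in the control arrays (SD, n = 3 each).

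**Figure D2:**
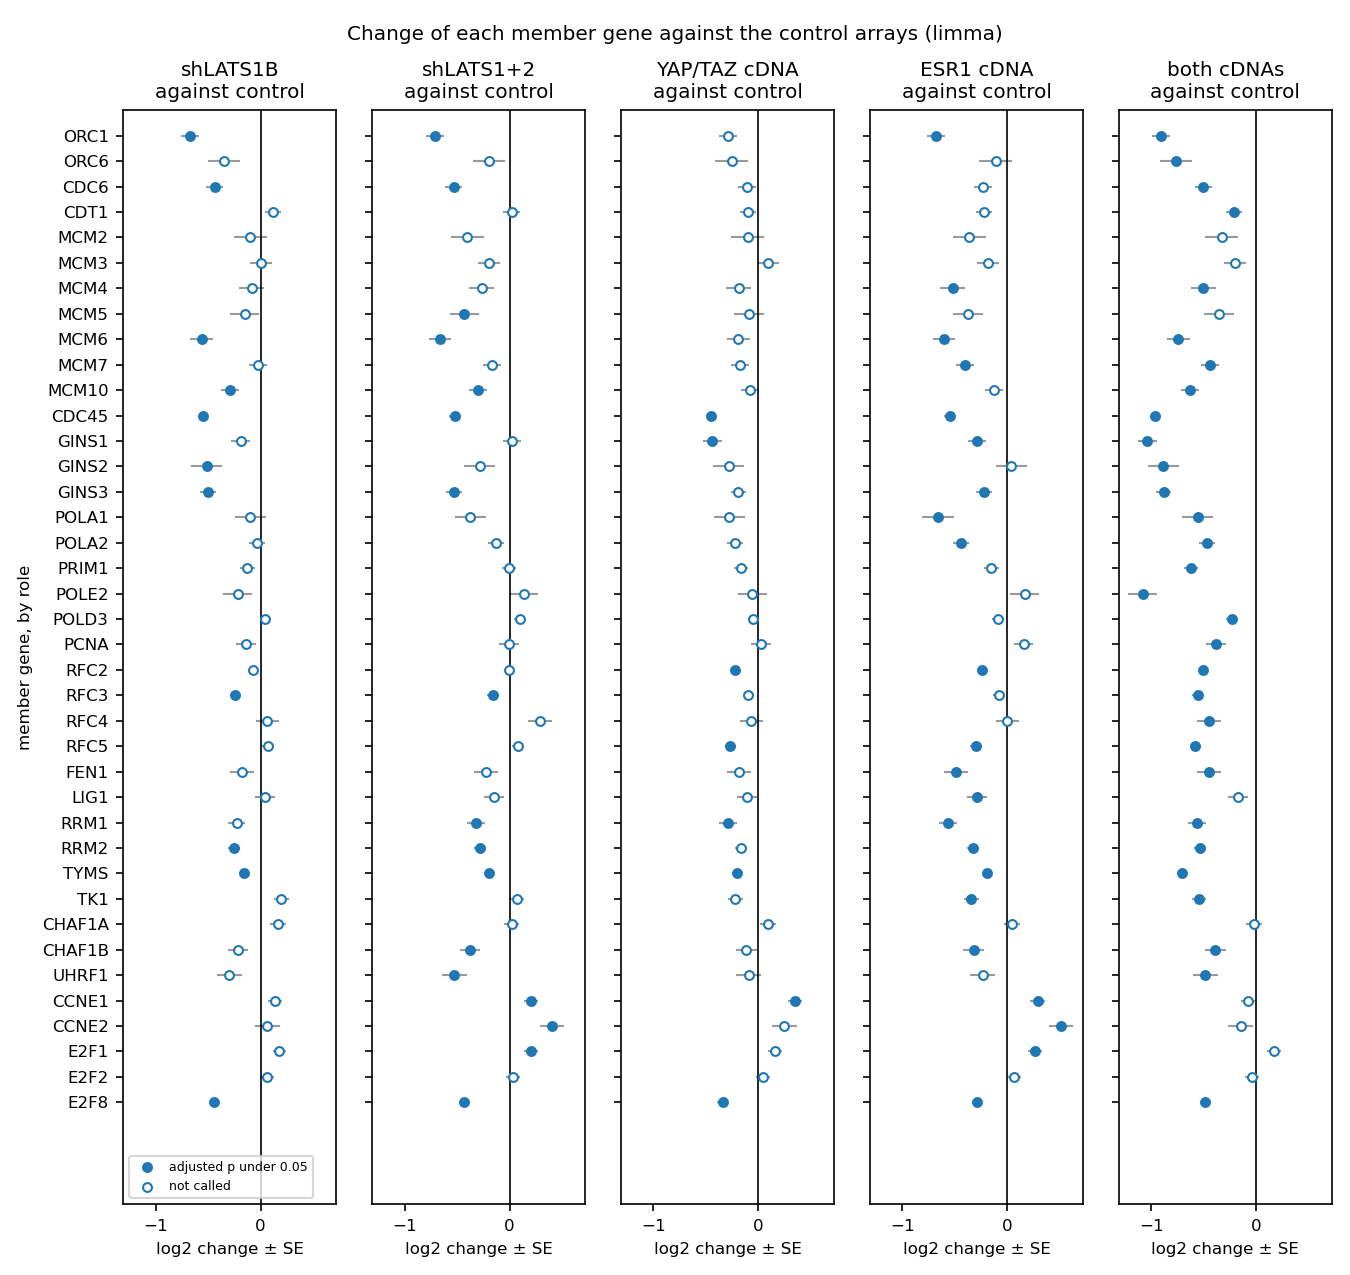
Change of each of the 39 genes (rows, by role) against the control arrays in each of 5 comparisons (panels), on the log2 scale with its standard error. Filled points passed adjusted p under 0.05 and open points did not. All 5 panels share the 3 control arrays, and the panel of both cDNAs holds 30 filled points, all left of 0.

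The ESR1 cDNA was set against the control cDNA to ask what the receptor does alone. Of the 39 genes 19 fell, against 11.9% of all genes, and 3 rose, against 7.04% (limma, adjusted p under 0.05, 3 against 3 arrays). The median change was -0.23, against 0.0021 over all genes. ORC1, MCM6 and POLA1 fell by at least 1.5-fold, a size reached by 1.03% of all genes. Of the licensing genes ORC1 read 7.62, 7.23 and 7.25 with ESR1 cDNA, against 8.16, 8.04 and 7.94 in the control arrays (-0.68 ± 0.086, limma adjusted p = 3.6e-05), and MCM6 read 9.11, 8.44 and 8.69, against 9.30, 9.47 and 9.30 (-0.60 ± 0.11, limma adjusted p = 0.00086). ESR1 array 1 was the highest of its group for both, without reaching the control arrays. MCM4 (-0.52 ± 0.12) and MCM7 (-0.40 ± 0.088) fell as well. POLA1 read 8.60, 7.997 and 7.91, against 8.95, 8.82 and 8.72 (-0.66 ± 0.15, limma adjusted p = 0.0047), and again array 1 stood nearest to the control arrays. The other falls were those of CDC45 (-0.54), GINS1 (-0.29), GINS3 (-0.22), POLA2 (-0.44), RFC2 (-0.24), RFC5 (-0.30), FEN1 (-0.49), LIG1 (-0.29), RRM1 (-0.56), RRM2 (-0.33), TYMS (-0.19), TK1 (-0.34), CHAF1B (-0.32) and E2F8 (-0.29). Both Okazaki fragment genes and all 4 deoxynucleotide genes were thus called lower.

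The 3 genes that rose with ESR1 cDNA were G1/S regulators. CCNE2, a cyclin that activates CDK2, read 9.28, 9.64 and 9.71 with ESR1 cDNA, against 8.79, 9.23 and 9.07 in the control arrays (0.51 ± 0.12, limma adjusted p = 0.0057). CCNE1 (0.29 ± 0.068) and E2F1 (0.26 ± 0.065) rose less. GINS2 (0.040 ± 0.15), POLE2 (0.17 ± 0.14), PCNA (0.16 ± 0.092) and RFC4 (-0.00024 ± 0.11), which all fell with both cDNAs, were not called with ESR1 cDNA alone (limma, adjusted p of 0.28 or above). Without ESR1 array 1, 24 genes were called lower and 3 higher, and without both arrays that stood apart 25 lower and 4 higher. Fitted on these 6 arrays alone, 7 genes were called, all lower, and leaving out single arrays ended the calls of CHAF1B, E2F1, GINS1, GINS3 and LIG1.

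YAP/TAZ cDNA was set against the control cDNA to ask what the co-activators do alone. Of the 39 genes 7 fell, against 3.84% of all genes, and 1 rose, against 3.16% (limma, adjusted p under 0.05, 3 against 3 arrays). The median change was -0.16, against -0.00089 over all genes, and no fall reached 1.5-fold, against 0.245% of all genes. CDC45 read 9.44, 9.27 and 9.34 with YAP/TAZ cDNA, against 9.76, 9.79 and 9.85 in the control arrays (-0.45 ± 0.055, limma adjusted p = 5e-05). GINS1 read 10.03, 9.81 and 9.92, against 10.22, 10.50 and 10.36 (-0.44 ± 0.088, limma adjusted p = 0.0045). The other falls were those of E2F8 (-0.34 ± 0.050), RRM1 (-0.29 ± 0.084), RFC5 (-0.27 ± 0.054), RFC2 (-0.23 ± 0.045) and TYMS (-0.21 ± 0.041). None of the 10 licensing genes was called, ORC1 coming nearest (-0.29 ± 0.086, adjusted p = 0.057). The gene that rose was CCNE1, at 8.39, 8.51 and 8.53, against 8.16, 8.14 and 8.10 in the control arrays (0.35 ± 0.068, limma adjusted p = 0.0042). RRM1 lost its call when single arrays were left out. Without ESR1 array 1 and shLATS1+2 array 3, which enter only through the shared spread, 12 genes were called lower and 1 higher. How many of all genes were called in that fit is not given here.

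Set directly against the single cDNAs, the combination was lower for most of the genes. Against YAP/TAZ cDNA, 27 of 39 were called lower, against 10.5% of all genes, and none higher, against 12.3% (limma, median change -0.32, against -0.0044 over all genes). Against ESR1 cDNA, 20 were called lower, against 12.9% of all genes, and none higher, against 16.2% (median -0.21, against -0.0043). Falls of at least 1.5-fold numbered 5 against YAP/TAZ cDNA, beside 1.78% of all genes, and 6 against ESR1 cDNA, beside 2.82%. All 5 helicase activation genes were called lower in both comparisons. Against ESR1 cDNA, 2 of the 10 licensing genes fell, ORC6 (-0.66 ± 0.16) and CDC6 (-0.27 ± 0.082). The estimates of the MCM ring ran from -0.14 for MCM6 to 0.036 for MCM2, and none was called. FEN1 (0.041 ± 0.12) and RRM1 (-0.0012 ± 0.084) were not called either (limma, adjusted p = 0.85 and 0.99). The comparison with ESR1 cDNA moved little without ESR1 array 1, at 18 genes lower and 2 higher. Without both arrays that stood apart 18 were lower and 6 higher, and shares over all genes are not given for these fits. Leaving out each of the 18 arrays in turn gave 18 to 22 genes against ESR1 cDNA and 19 to 32 against YAP/TAZ cDNA.

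Whether the effects of the cDNAs add was tested by the interaction, the change with both cDNAs minus the sum of the changes with each alone, on the log2 scale. On the first principal component the arrays with both cDNAs lay across the gap from the other groups used here. Batch and treatment therefore cannot be told apart in the interaction. It was negative and called for 10 of the 39 genes, against 7.68% of all genes, and positive for none, against 11.4% (limma, adjusted p under 0.05, 12 arrays in 4 groups). The median over the 39 was -0.10, against 0.00022 over all genes. For 4 of the 39 the negative value was of at least 1.5-fold, against 3.11% of all genes. The 10 genes were MCM10, GINS2 and GINS3 of helicase activation, PRIM1, POLE2, PCNA and RFC3 of the polymerases and clamp, TYMS, CCNE1 and CCNE2. POLE2 had the largest value: it changed by -0.057 ± 0.14 with YAP/TAZ cDNA and by 0.17 ± 0.14 with ESR1 cDNA, neither of them called, and by -1.08 ± 0.14 with both, an interaction of -1.19 ± 0.19 (limma, adjusted p = 0.00038). Its 3 arrays with both cDNAs read 7.52, 7.25 and 7.42, against 8.47, 8.42 and 8.37 with YAP/TAZ cDNA, 8.33, 8.73 and 8.86 with ESR1 cDNA and 8.18, 8.58 and 8.67 in the control arrays. Only the arrays with both cDNAs lay below 8.

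CCNE2 and CCNE1, the partners of CDK2, had the next values. CCNE2 read 9.05, 8.70 and 8.90 with both cDNAs, against 9.30, 9.27 and 9.25 with YAP/TAZ cDNA, 9.28, 9.64 and 9.71 with ESR1 cDNA and 8.79, 9.23 and 9.07 in the control arrays (interaction -0.91 ± 0.17, limma adjusted p = 0.0011). CCNE1 read 8.02, 8.05 and 8.09 with both cDNAs, against 8.39, 8.51 and 8.53, 8.64, 8.29 and 8.34 and 8.16, 8.14 and 8.10 in the same order (interaction -0.71 ± 0.10, limma adjusted p = 6.5e-05). Each single cDNA raised CCNE1, and its arrays with both cDNAs lay just below the control arrays. GINS2 (-0.64 ± 0.21), PCNA (-0.56 ± 0.13), GINS3 (-0.47 ± 0.11), MCM10 (-0.42 ± 0.12), RFC3 (-0.38 ± 0.076), TYMS (-0.31 ± 0.058) and PRIM1 (-0.30 ± 0.10) followed. CDC45 is a contrast among the large falls: it changed by -0.45 ± 0.055 with YAP/TAZ cDNA, -0.54 ± 0.055 with ESR1 cDNA and -0.96 ± 0.055 with both, with an interaction of 0.031 ± 0.077 that was not called (limma, adjusted p = 0.85).

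No licensing gene was called in the interaction. The estimates for MCM2 to MCM7 ran from -0.11 for MCM3 to 0.21 for MCM4, and those of RRM1 (0.29 ± 0.12) and POLA1 (0.38 ± 0.21) were positive without being called (limma, adjusted p = 0.1 and 0.24). ESR1 array 1 decides this side of the result. Without it 12 genes were called negative, GINS1 (-0.39 ± 0.12) and RFC4 (-0.52 ± 0.14) joining the 10, and 7 were called positive: MCM4 (0.39 ± 0.11), POLA1 (0.60 ± 0.15), POLA2 (0.30 ± 0.093), FEN1 (0.41 ± 0.11), LIG1 (0.34 ± 0.12), RRM1 (0.42 ± 0.085) and E2F8 (0.19 ± 0.068). Without both arrays that stood apart, 13 were negative and 9 positive. The shares of all genes called in these fits are not given here, so these counts are not set against them. The calls of GINS2, MCM10 and PRIM1 were lost when other single arrays were left out.

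**Figure D3:**
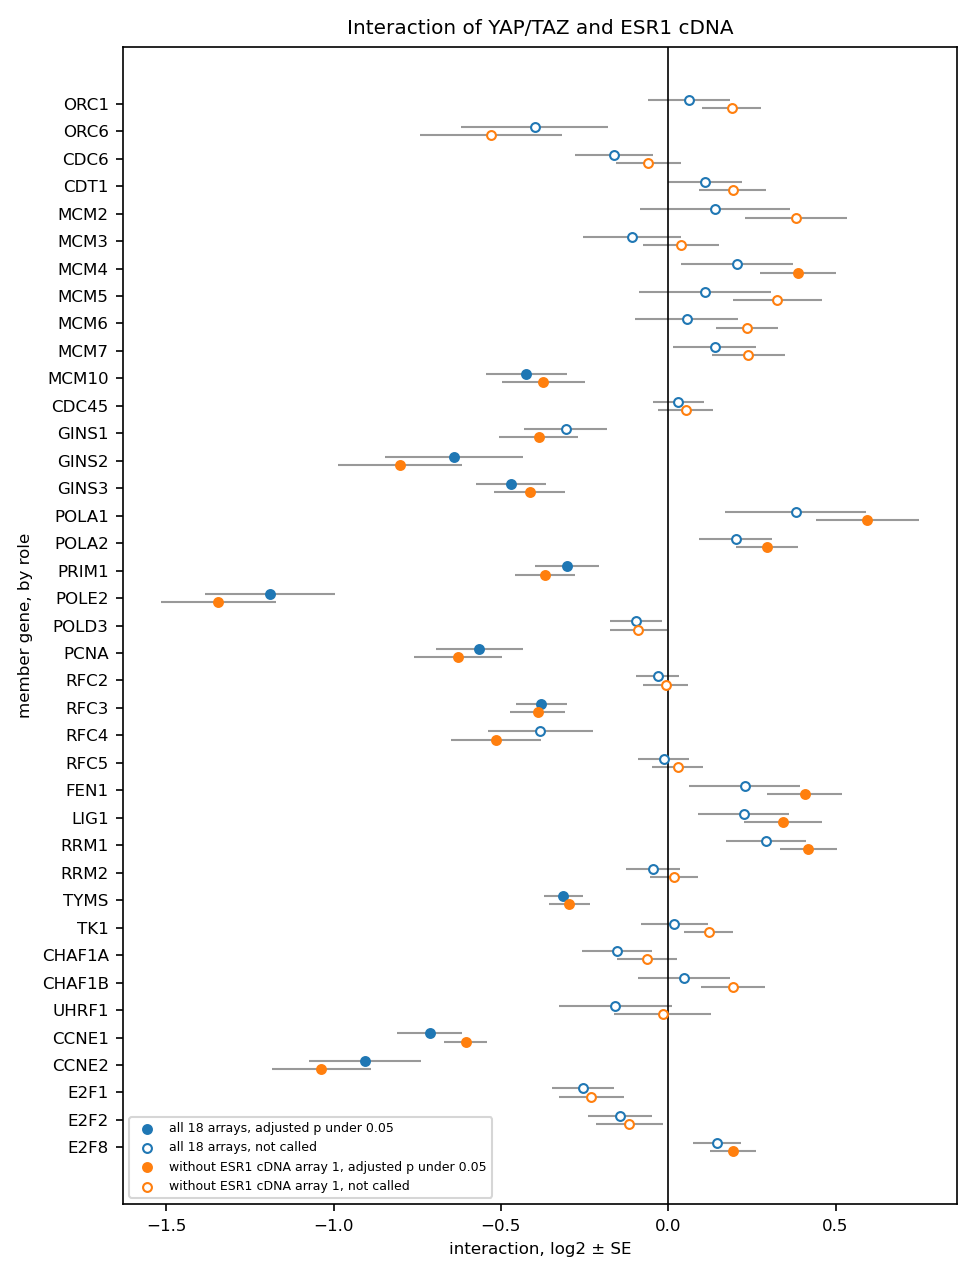
Interaction between YAP/TAZ cDNA and ESR1 cDNA for each of the 39 genes on the log2 scale, with its standard error, by role. Each gene is drawn for the fit of all arrays and for the fit without ESR1 array 1. Filled points passed adjusted p under 0.05. In the fit of all arrays the 10 filled points lie left of 0, with POLE2 farthest. In the fit without ESR1 array 1, 12 filled points lie left of 0 and 7 lie right of it.

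**Figure D4:**
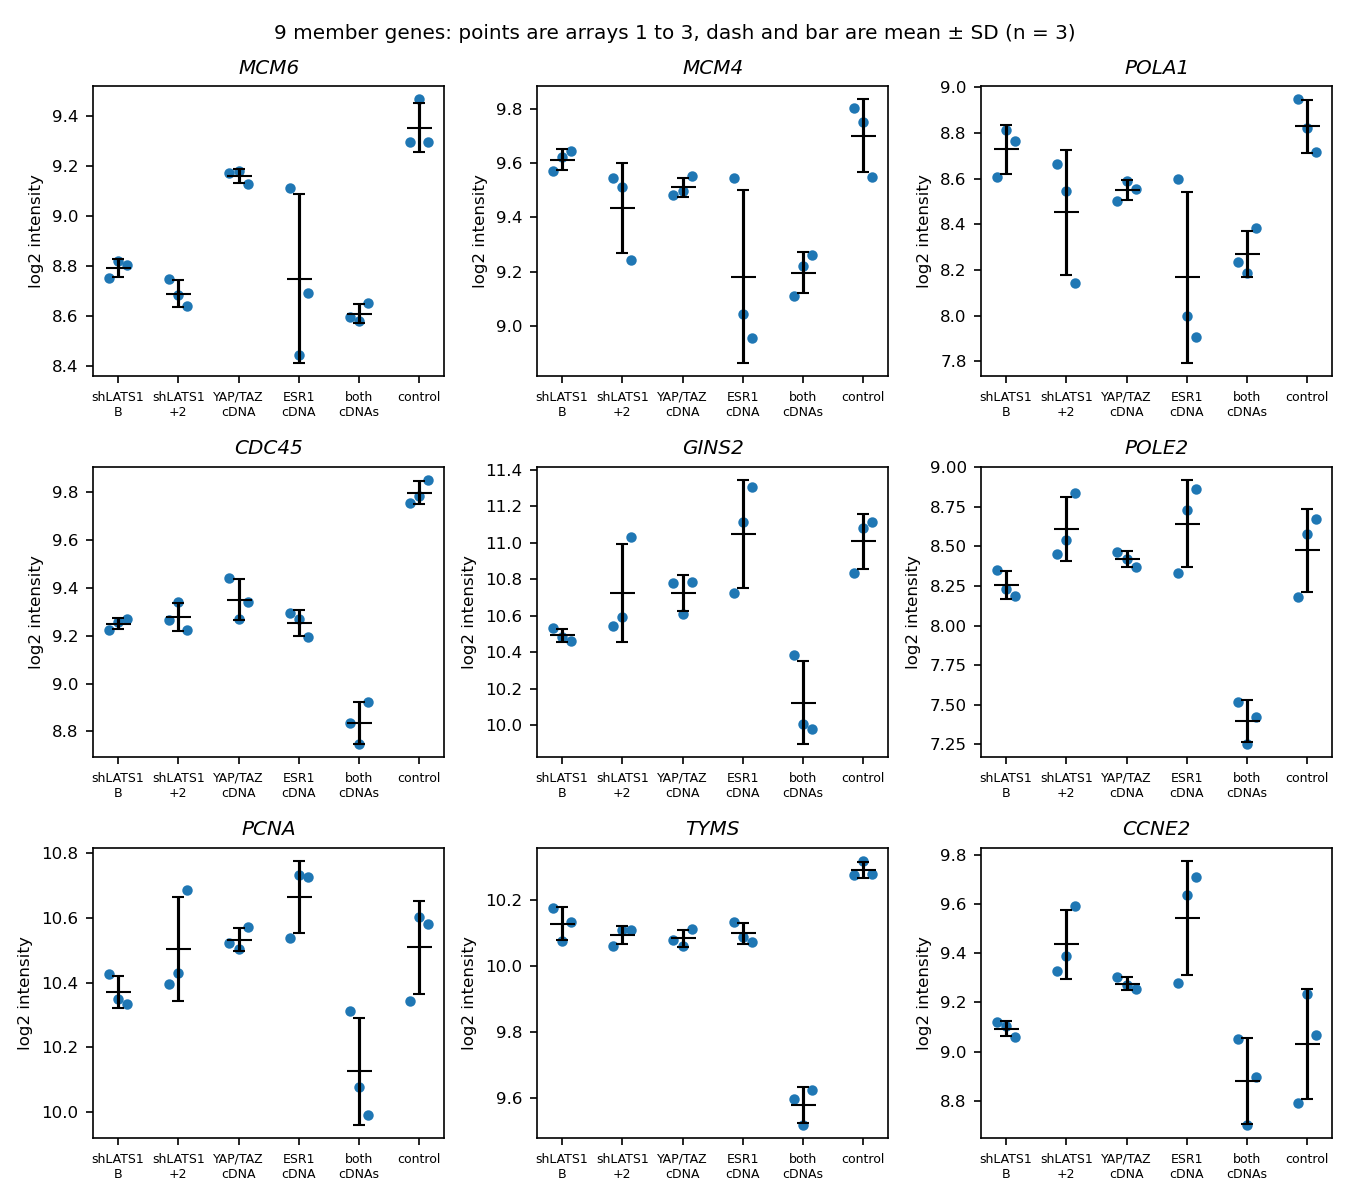
Log2 intensity of 9 of the genes on every array (points) with the mean and SD of each group (dash and bar, n = 3). CDC45 and TYMS step down in every group against control and farthest with both cDNAs, POLE2 is low only in the arrays with both cDNAs, and MCM6, MCM4 and POLA1 show ESR1 array 1 above the other ESR1 arrays.

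Each knockdown was set against the control arrays for the same genes. Of the kinase genes LATS1 was called lower in both and LATS2 in neither (0.14 ± 0.063 with shLATS1B, limma adjusted p = 0.14, and 0.090 ± 0.063 with shLATS1+2, limma adjusted p = 0.37). In the shLATS1B arrays 11 of the 39 genes fell, against 11.6% of all genes, and none was called higher, against 12.4% (limma, adjusted p under 0.05, 3 against 3 arrays). The median change was -0.14, against -0.0059 over all genes. ORC1 read 7.34, 7.46 and 7.32 in the shLATS1B arrays, against 8.16, 8.04 and 7.94 in the control arrays. This 1.60-fold fall was the only one past 1.5-fold, a size reached by 1.96% of all genes (-0.67 ± 0.086; limma, adjusted p = 1.7e-05). MCM6 read 8.75, 8.82 and 8.80, against 9.30, 9.47 and 9.30 (-0.56 ± 0.11, limma adjusted p = 0.0009). CDC45 (-0.55 ± 0.055), GINS2 (-0.52 ± 0.15), GINS3 (-0.50 ± 0.075) and MCM10 (-0.29 ± 0.085) fell, so that 4 of the 5 helicase activation genes were called. E2F8 (-0.45 ± 0.050), CDC6 (-0.44 ± 0.082), RRM2 (-0.26 ± 0.057), RFC3 (-0.24 ± 0.054) and TYMS (-0.16 ± 0.041) made up the rest. Of the 10 genes of the polymerases, the clamp and its loader only RFC3 was called, and POLE2 was not (-0.22 ± 0.14, adjusted p = 0.3). Fitted on these 6 arrays alone, 16 genes were lower and 1 higher, and without the arrays that stood apart in other groups 17 were lower and 4 higher. Neither count is set against a share over all genes. Leaving out single arrays ended the calls of GINS2 and MCM10.

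In the arrays labelled shLATS1+2, 14 of the 39 genes fell, against 13% of all genes, and 3 rose, against 11.8% (limma, adjusted p under 0.05, 3 against 3 arrays). The median change was -0.19, against -0.0080 over all genes. ORC1 read 7.40, 7.38 and 7.24 in the shLATS1+2 arrays, against 8.16, 8.04 and 7.94 in the control arrays (-0.71 ± 0.086, limma adjusted p = 9.4e-06), and MCM6 read 8.75, 8.68 and 8.64, against 9.30, 9.47 and 9.30 (-0.66 ± 0.11, limma adjusted p = 0.0002). Both fell at least 1.5-fold, a size reached by 2.24% of all genes. CDC6 (-0.53), GINS3 (-0.53), UHRF1 (-0.52), CDC45 (-0.52), E2F8 (-0.43), MCM5 (-0.43), CHAF1B (-0.38), RRM1 (-0.32), MCM10 (-0.30), RRM2 (-0.28), TYMS (-0.20) and RFC3 (-0.16) also fell. CCNE2 (0.40 ± 0.12), CCNE1 (0.21 ± 0.068) and E2F1 (0.20 ± 0.065) rose. CCNE2 read 9.33, 9.39 and 9.59, against 8.79, 9.23 and 9.07. Single arrays left out ended the calls of CCNE1, CCNE2, E2F1, MCM5, MCM10, RFC3 and RRM1. Without ESR1 array 1 and shLATS1+2 array 3, 15 genes were lower and 3 higher, and the share of all genes called in that fit is not given here.

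Between the knockdowns no difference was called for any of the 39 genes, against 0.321% of all genes. Of the 39, 3 had an unadjusted p under 0.05 (limma), and no alternative fit called any. The differences, shLATS1+2 minus shLATS1B, ran from -0.30 ± 0.16 for MCM2 to 0.35 ± 0.14 for POLE2, which read 8.45, 8.54 and 8.84 in the shLATS1+2 arrays, against 8.35, 8.23 and 8.18 in the shLATS1B arrays (limma, adjusted p = 0.39). A miss of the threshold does not show that the groups are alike.

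The 5 comparisons with the control arrays share those 3 arrays, so their likeness is not a result. Set side by side in the order shLATS1B, shLATS1+2, YAP/TAZ cDNA, ESR1 cDNA and both cDNAs, CDC45 changed by -0.55, -0.52, -0.45, -0.54 and -0.96, each called. TYMS changed by -0.16, -0.20, -0.21, -0.19 and -0.71, and E2F8, which represses the E2F targets late in S phase, by -0.45, -0.43, -0.34, -0.29 and -0.48, also all called. The control arrays of CDC45 read 9.76, 9.79 and 9.85, above every array of the other groups, of which the highest was 9.44. TK1 differed in sign, with 0.20 ± 0.070 in the shLATS1B arrays, which was not called (limma, adjusted p = 0.055), and -0.54 ± 0.070 with both cDNAs.

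Other genes of the pathway were read from lists set beside the 39. Of 43 further replication factors, 27 fell and 3 rose with both cDNAs, against 14.7% of all genes lower and 14.7% higher, with a median of -0.30. GINS4, the remaining GINS subunit (-1.18 ± 0.090), GMNN, the inhibitor of CDT1 (-0.98 ± 0.16), and the checkpoint mediator CLSPN (-0.96 ± 0.22) fell. SAMHD1, which degrades deoxynucleotides, rose 3.54-fold (1.83 ± 0.10; limma, adjusted p = 8.7e-10). With shLATS1B 16 of the 43 fell and 2 rose, against 11.6% and 12.4% of all genes. With shLATS1+2 12 fell and 2 rose, against 13% and 11.8%. With YAP/TAZ cDNA 3 fell and 2 rose, against 3.84% and 3.16%, and with ESR1 cDNA 14 fell and 2 rose, against 11.9% and 7.04%. The counts of rises were thus at or below the share over all genes, apart from YAP/TAZ cDNA, where 2 of 43 lay close to it. SAMHD1 was among the rises each time, at 1.48, 1.41, 1.38 and 1.47 in that order of groups. In the interaction 14 of the 43 were negative and 3 positive, against 7.68% and 11.4% of all genes. Without ESR1 array 1 the counts were 19 lower and 6 higher with ESR1 cDNA, 8 and 2 with YAP/TAZ cDNA and 16 negative and 9 positive in the interaction. Without shLATS1+2 array 3, 11 were lower and 2 higher with shLATS1+2, and without both arrays 18 and 2. These counts with arrays left out are given without a share over all genes.

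Of 27 other genes of G1/S control, 8 fell and 4 rose with both cDNAs, against 14.7% of all genes in each direction, so that the rises were at the share over all genes. CDKN1A, the inhibitor p21 of cyclin-dependent kinases, read 10.16, 10.33 and 10.21 with both cDNAs, against 9.32, 9.15 and 9.18 in the control arrays (2.02-fold higher, 1.02 ± 0.060; limma, adjusted p = 1.3e-09). It also rose with shLATS1B (0.41), shLATS1+2 (0.25), YAP/TAZ cDNA (0.34) and ESR1 cDNA (0.37). With both cDNAs CCNA2, the S phase cyclin (-0.92 ± 0.042), and CDK2, the kinase that cyclins E and A activate (-0.66 ± 0.048), fell, and CCND1, the G1 cyclin D1, was not called (0.075 ± 0.078, adjusted p = 0.56). Of 23 mitosis genes all fell with both cDNAs, against 14.7% of all genes, with a median of -0.86, beside -0.50 for the 39 replication genes. They included the proliferation antigen MKI67 (-0.81 ± 0.12). Of the 23, 19 fell with shLATS1B, against 11.6% of all genes, 18 with shLATS1+2, against 13%, 15 with YAP/TAZ cDNA, against 3.84%, and 21 with ESR1 cDNA, against 11.9%, and 0 rose in these comparisons by limma. Without ESR1 array 1, 20 fell with ESR1 cDNA, and without shLATS1+2 array 3, 18 fell with shLATS1+2. In the interaction 2 of the 23 mitosis genes were called negative and none positive, near the 7.68% of all genes called negative, and without ESR1 array 1 they were 3 negative and 3 positive. Mitosis counts with arrays left out likewise have no share over all genes beside them.

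Of 45 replication-dependent histone genes, whose RNA is made in S phase and lacks a poly(A) tail, 28 fell and 1 rose with both cDNAs, against 14.7% of all genes in each direction (median -0.24), H2AC4 (-1.06 ± 0.14) and H1-5 (-1.06 ± 0.15) the most. With shLATS1B 7 fell, near the 11.6% of all genes, with YAP/TAZ cDNA 5, against 3.84%, and with ESR1 cDNA 8, against 11.9%, none rising by limma. With shLATS1+2 2 fell and 2 rose, below the 13% and 11.8% of all genes. In the interaction 9 were negative and 2 positive, against 7.68% and 11.4%. With ESR1 array 1 left out, the calls with ESR1 cDNA turned to 4 histone genes lower and 12 higher. In the same fit 23 were negative and 2 positive in the interaction, 11 were lower with shLATS1B and 8 with YAP/TAZ cDNA. Without shLATS1+2 array 3, 3 were lower and 1 higher with shLATS1+2, and without both arrays 5 and 2. No share over all genes is given for these fits, so the counts are not set against one. These genes are near-identical copies whose probes can share signal, so single members are uncertain. Their mean difference from the 18-array mean was -0.12, 0.16 and 0.20 in ESR1 arrays 1 to 3 and 0.026, 0.046 and 0.27 in shLATS1+2 arrays 1 to 3. ESR1 array 1 was the lowest of its group here and the highest for the licensing genes, and shLATS1+2 array 3 the highest of its group here and the lowest for licensing.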

How the data were processed

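Per the labels' protocols, RNA from 18 MCF10A samples was labelled from 100 ng of total RNA and hybridised to Affymetrix whole-transcript arrays, in 6 groups of 3. The deposited table holds log2 intensities for 32321 probe sets. Per the submitters' processing notes the R package affy was used, with no version named. How background was corrected, arrays normalized and probes summarised is not given in the sources used here. No column of other samples was present.

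Probe sets with exactly 1 gene symbol in the platform annotation (19158) were kept, with symbols updated through RefSeq (GRCh38.p14). For each of 18404 genes the brightest probe set over all arrays was used, which mattered for 637 genes and, here, for UHRF1. All arrays entered 1 model with a mean per group in R 4.3.3 with limma 3.58.1 (lmFit, contrasts.fit and eBayes; 12 residual and 3.94 prior degrees of freedom). Tests were two-sided with Benjamini-Hochberg adjustment over all 18404 genes, in 9 comparisons, and were tested on simulated data. Dim genes were kept. The number of arrays limits the precision.

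The 39 genes and the further lists were chosen with earlier results of these data known. The text names every one of the 39, the targeted genes, MKI67, CCNA2, CCND1 and CDKN1A, and up to 4 called genes of each further list with the largest change. Members of those lists with no probe set of their own, such as CDKN2C, CENPA and some histone genes, were not used here. Alternatives covered the scaling between arrays, the use of several probe sets, the dim filter, the arrays in the fit, the moderation, a fold threshold, a replicate block and leaving out each array. Promoter letters were counted as exact matches on both strands with Python 3.11.15.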

Additional observations from a re-analysis of the deposited data

Results flagged for a closer look

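The change with both cDNAs differed from the sum of the changes with each cDNA alone, by limma's interaction test, for 10 of the 39 genes. The log2 values were -0.42 for MCM10, -0.64 for GINS2, -0.47 for GINS3, -0.30 for PRIM1, -1.19 for POLE2, -0.56 for PCNA, -0.38 for RFC3, -0.31 for TYMS, -0.71 for CCNE1 and -0.91 for CCNE2. Of all genes 7.68% were called negative in this test, in which batch and treatment cannot be told apart. Dixon's test for single outlying samples needs groups of at least 4 and was not applied to these groups of 3.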

How the results depend on the processing

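No call of the 39 genes changed direction under any alternative. Of the calls, those that held under every array left out and every alternative named with the processing steps except the fold threshold were 9 of 11 for shLATS1B, 10 of 17 for shLATS1+2, 6 of 8 for YAP/TAZ cDNA, 7 of 22 for ESR1 cDNA and 29 of 30 for both cDNAs. They were 18 of 27 for both against YAP/TAZ cDNA, 15 of 20 for both against ESR1 cDNA and 7 of 10 for the interaction. Leaving out each array in turn gave 9 to 16 changed genes for shLATS1B, 12 to 22 for shLATS1+2, 0 for the knockdowns against each other, 7 to 12 for YAP/TAZ cDNA, 18 to 27 for ESR1 cDNA and 29 to 32 for both cDNAs. It gave 19 to 32 for both against YAP/TAZ cDNA, 18 to 22 for both against ESR1 cDNA and 7 to 19 for the interaction, the 19 being without ESR1 array 1.

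A threshold of at least 1.5-fold, which by construction keeps fewer genes, left 1 gene for shLATS1B, 2 for shLATS1+2, 0 for YAP/TAZ cDNA, 3 for ESR1 cDNA, 11 for both cDNAs, 5 for both against YAP/TAZ cDNA, 6 for both against ESR1 cDNA and 4 for the interaction. Fitted on the compared groups alone, 17 genes were called for shLATS1B and 7 for ESR1 cDNA; the spread is then estimated from 6 arrays. Without ESR1 array 1 and shLATS1+2 array 3, a choice made after seeing the data, the counts were 21 for shLATS1B, 13 for YAP/TAZ cDNA and 22 for the interaction. Counts from these refits are given without the share of all genes called in them. With each array centred on its median, the mean level of the 39 genes moved to -0.28 with both cDNAs and 0.22 in the control arrays, and the cause was not tested.

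Groups share replicate numbers in the labels, but the numbers do not pair the arrays: same-numbered arrays of different groups had deviations correlated from -0.694 to 0.631 (median -0.083, 13 of 45 pairs over 0.1), and 5 of 18 arrays correlated best with their own number. With the replicate number as a block, 12 genes changed for shLATS1B, 15 for shLATS1+2, 0 for the knockdowns against each other, 9 for YAP/TAZ cDNA, 21 for ESR1 cDNA, 29 for both cDNAs, 27 and 20 for both against YAP/TAZ and ESR1 cDNA, and 10 for the interaction.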
